A study of Mus musculus with 8 samples.

Results

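The macrophage genes of the mouse heart were followed here as a set of 35 named genes, out of 18137 genes in the expression table. The set was chosen by name, as genes known to mark or serve macrophages, with earlier results of these data known. Its rule uses no measured value. It holds 5 markers of resident macrophages (Timd4, Folr2, Vsig4, Cd163 and Cbr2), 3 markers of recruited, monocyte-derived cells (Ccr2, Ly6c2 and Plac8) and 27 genes shared by macrophages more widely. Heart RNA of 4 samples from swimming mice was compared with that of 4 samples from sedentary mice. All 8 samples are labelled wild type, and the series title places them in the aging heart. The sources used here give neither age nor sex nor how long the mice swam. Replicates are called biological, 1 to 4 per group, but are not said to be separate mice, so p-values measure the spread between these samples.

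Macrophages of the healthy heart come from more than one source. Cells seeded before birth renew themselves in the tissue and carry surface proteins such as TIMD4 and FOLR2, while blood monocytes that express the chemokine receptor CCR2 enter the tissue, above all after injury. Cardiac macrophages clear dying cells and the material shed by cardiomyocytes, supply complement C1q, and take part in electrical conduction and repair.

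RNA was depleted of ribosomal RNA and reverse transcribed with random hexamers, and the deposited values are FPKM, fragments per transcript corrected for its length and for library size, so that levels of different genes can be compared. FPKM totals were between 210413 and 235461 per library, and the number of reads is unknown. In swimming replicates 2 and 3 the mitochondrial transcript mt-Co1 was low, at 12597 and 20079 FPKM, against 28904 and 28522 FPKM in swimming replicates 1 and 4 and 30804 to 32015 FPKM in the sedentary libraries. Sedentary replicate 4 held transcripts of other tissues, with the liver gene Alb at 23.2 FPKM and the fat gene Cfd at 12.0 FPKM, where no other library exceeded 0.0865 FPKM of Alb or 0.668 FPKM of Cfd.

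The tissue label and the macrophage markers were both borne out by level. The 12 cardiomyocyte markers summed to between 13535 and 14301 FPKM in swimming libraries and 11871 to 13591 FPKM in sedentary libraries. All 35 macrophage genes were above 0 in at least 7 of the 8 libraries, and Csf1r, the receptor for the growth factor that macrophages depend on, was between 9.92 and 12.4 FPKM throughout. Lyz2, which encodes the lysozyme of myeloid cells, had the highest level of the set, followed by Gas6, C1qa, C1qb, F13a1, Ctss, C1qc and Mrc1. In whole tissue, a change in the number of macrophages and a change in RNA per macrophage cannot be told apart.

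Most macrophage genes had log2 fold changes slightly above 0 in swimming against sedentary hearts, and none of them passed the test across all genes. Of the 35, 34 had a mean of at least 0.5 FPKM over the 8 libraries and were tested with limma on log2(FPKM + 0.5), with Benjamini-Hochberg adjustment over all 11674 genes tested. The call, an adjusted p below 0.05, was made for 0 of these 34 genes, beside 0.0171% of all genes (2 genes, Rbpms and Ccdc137, both higher). At an unadjusted limma p below 0.05, 8 of the 34 were higher (23.5%) and 0 were lower, beside 4.93% of all genes higher and 2.43% lower. Of the 8, Trem2 reached the minimum through its swimming values. The log2 fold change was above 0 for 28 of the 34 (82.4%), beside 58.7% of all genes, with a median of 0.18 against 0.03 over all genes tested. In 7 genes (C1qa, C1qb, Ccr2, Fcna, Lyz2, Mrc1 and Vsig4) every swimming library lay above every sedentary library, which held for 3.24% of all genes. In 0 of the 34 did every swimming library lie below, beside 1.58% of all genes. These counts depended on the scaling of the libraries. After median-of-ratios scaling 5 of 33 genes tested (C1qb, Ctss, Fcna, Lyz2 and Vsig4) were higher at an unadjusted limma p below 0.05, beside 3.03% of all genes, 0 were lower, beside 4.17%, and the non-overlapping genes were Fcna, Lyz2 and Vsig4, beside 2.15%. With libraries scaled to the same total 10 were higher and 0 lower, beside 9.89% and 1.2% of all genes, and 8 did not overlap, beside 6.68%. After quantile normalization 8 were higher, beside 3.62%, and 1 (Timd4) was lower, beside 3.35%.

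**Figure D1:**
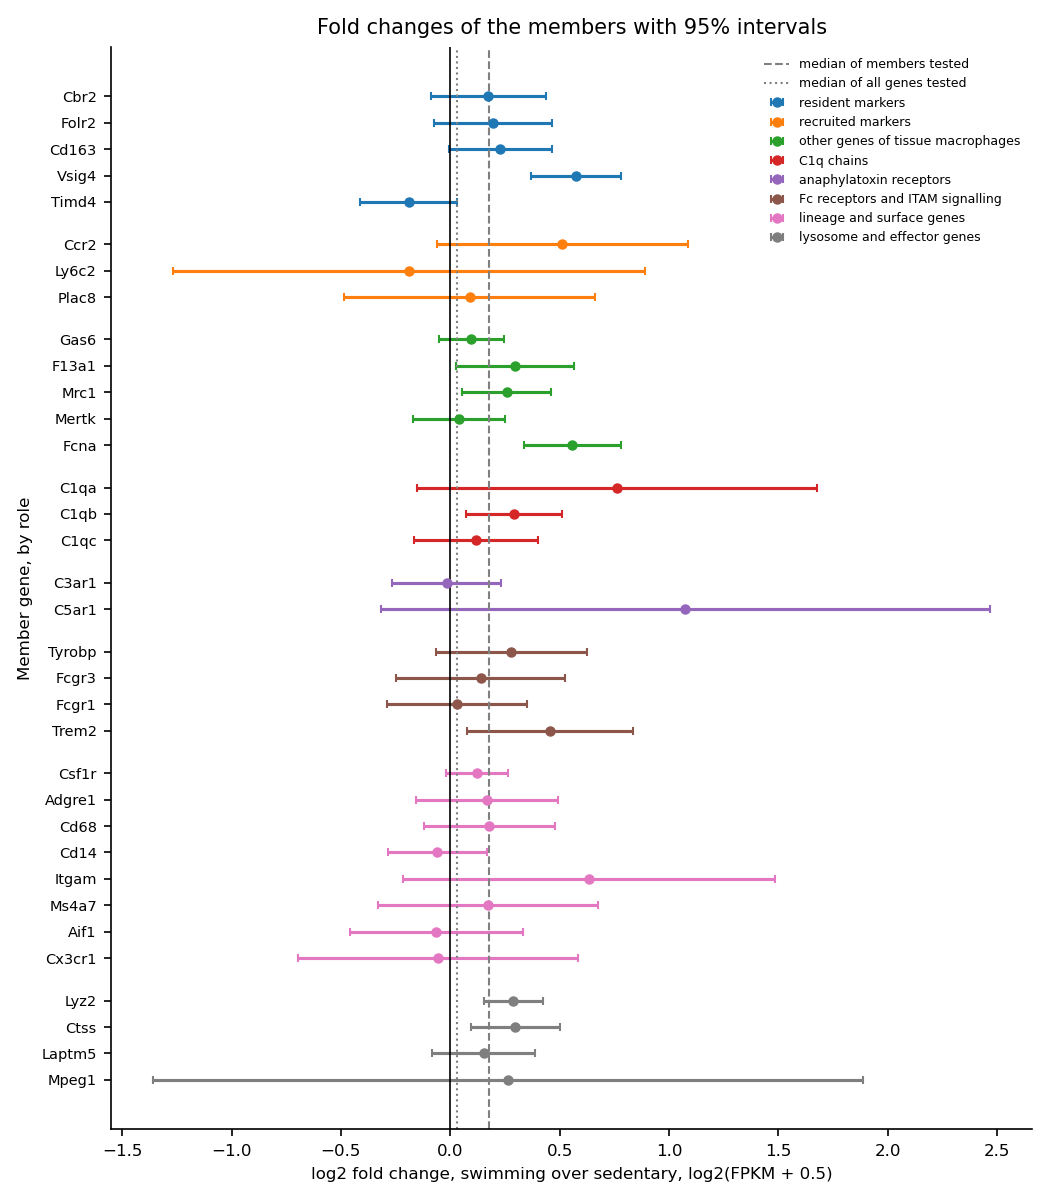
Log2 fold change of swimming over sedentary hearts for the 34 macrophage genes tested, on the log2(FPKM + 0.5) scale (x axis), by role (y axis). Points are limma estimates, bars their 95% intervals, the dashed line the median of the 34 genes (0.18) and the dotted line that of all genes tested (0.03). Most points lie right of 0, and the intervals of C5ar1, Mpeg1 and Ly6c2 are the widest.

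Summed over all 35 genes, macrophage transcripts came to 349.3, 378.5, 364.9 and 341.4 FPKM in swimming replicates 1 to 4, and to 299.1, 303.3, 302.4 and 287.2 FPKM in sedentary replicates 1 to 4. The sums were 358.5 ± 16.5 FPKM in swimming and 298.0 ± 7.41 FPKM in sedentary hearts (SD, n = 4 each), and the groups did not overlap. Swimming replicates 2 and 3, with the low mt-Co1, had the highest value of 10 and 11 genes of the set. Sedentary replicate 1 had the lowest value of 9, and sedentary replicates 3 and 4 of 7 each. Swimming replicates 1 and 4 alone still lay above all sedentary sums. Lyz2 made up the largest share of the sums.

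Among the resident markers, Vsig4 had the largest log2 fold change. It encodes a complement receptor of the immunoglobulin family, found on tissue macrophages, which binds C3b and iC3b (ENSMUSG00000044206, chromosome X, 96247203 to 96293438, minus strand, build mm10). Vsig4 had 1.598, 1.73, 1.56 and 1.72 FPKM in swimming hearts, against 1.14, 0.925, 0.820 and 0.906 FPKM in sedentary hearts. Every swimming library lay above every sedentary one, and the means were 1.65 ± 0.0860 FPKM in swimming and 0.947 ± 0.135 FPKM in sedentary hearts (SD, n = 4 each). The log2 fold change was 0.58 (SE 0.0885, 95% interval 0.37 to 0.78), and the limma adjusted p was 0.434.

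Cd163, the scavenger receptor for haptoglobin-bound haemoglobin, had 2.28, 2.94, 2.84 and 2.84 FPKM in swimming hearts, against 2.30, 2.57, 1.96 and 2.16 FPKM in sedentary hearts. The groups overlapped through swimming replicate 1, and the log2 fold change was 0.23 (95% interval -0.01 to 0.46, limma adjusted p = 0.674). Folr2, which encodes a folate receptor of resident macrophages, had 4.31, 5.99, 5.43 and 5.24 FPKM in swimming hearts, against 3.94, 5.31, 4.32 and 4.45 FPKM in sedentary hearts. Its groups overlapped, with a log2 fold change of 0.20 (95% interval -0.07 to 0.47, limma adjusted p = 0.729). Cbr2, a carbonyl reductase gene used as a marker of resident cardiac macrophages, had 6.84, 7.57, 7.62 and 6.30 FPKM in swimming hearts, against 4.95, 6.71, 6.27 and 7.07 FPKM in sedentary hearts. These values overlapped as well (log2 fold change 0.17, 95% interval -0.09 to 0.44, limma adjusted p = 0.758).

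Timd4, which encodes a phosphatidylserine receptor for the uptake of dying cells, had the lower mean in swimming hearts. It had 0.515, 0.619, 0.461 and 0.507 FPKM in swimming hearts, against 0.660, 0.816, 0.615 and 0.594 FPKM in sedentary hearts. Swimming replicate 2 overlapped with the sedentary range, and the log2 fold change was -0.19 (95% interval -0.41 to 0.03, limma adjusted p = 0.702). Of the 5 resident markers, 4 had a log2 fold change above 0 and 1 below, with a median of 0.20.

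The 3 recruited markers varied more between libraries than the resident ones. Ccr2, the receptor for the monocyte attractant CCL2, had 1.68, 2.32, 2.02 and 1.67 FPKM in swimming hearts, against 1.64, 1.496, 1.42 and 0.490 FPKM in sedentary hearts. The groups did not overlap, but swimming replicates 1 and 4 lay close to sedentary replicate 1. The log2 fold change was 0.51 (95% interval -0.06 to 1.09, limma adjusted p = 0.694), and 0.26 without sedentary replicate 4, the library with liver and fat transcripts. Ly6c2, a surface protein of inflammatory monocytes, had 1.54, 0, 0.386 and 1.21 FPKM in swimming hearts, against 1.09, 1.16, 0.751 and 0.285 FPKM in sedentary hearts. It was listed at 0 in swimming replicate 2, the groups overlapped, and the log2 fold change was -0.19 (95% interval -1.27 to 0.89, limma adjusted p = 0.939). Reads of Ly6c2 can be shared with its close relative Ly6c1, so its values are uncertain. Plac8, a small cysteine-rich protein of monocytes and other leukocytes, had 0.707, 0.231, 0.872 and 1.28 FPKM in swimming hearts, against 0.622, 0.629, 0.574 and 0.735 FPKM in sedentary hearts. All 4 sedentary values lay inside the swimming range (log2 fold change 0.09, 95% interval -0.49 to 0.66, limma adjusted p = 0.948). The directions of Ly6c2 and Plac8 turned round under other settings.

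The balance of resident to recruited markers overlapped between the groups. The 5 resident markers summed to 15.5, 18.8, 17.9 and 16.6 FPKM in swimming hearts and to 12.998, 16.3, 14.0 and 15.2 FPKM in sedentary hearts. The 3 recruited markers summed to 3.93, 2.55, 3.28 and 4.15 FPKM in swimming hearts and to 3.35, 3.29, 2.75 and 1.51 FPKM in sedentary hearts. Resident over recruited gave ratios of 3.95, 7.38, 5.46 and 3.9998 in swimming hearts and of 3.88, 4.97, 5.09 and 10.05 in sedentary hearts. The highest ratio was that of sedentary replicate 4, where both Ccr2 and Ly6c2 were at their lowest apart from the 0 of Ly6c2 in swimming replicate 2, and the groups overlapped widely.

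**Figure D2:**
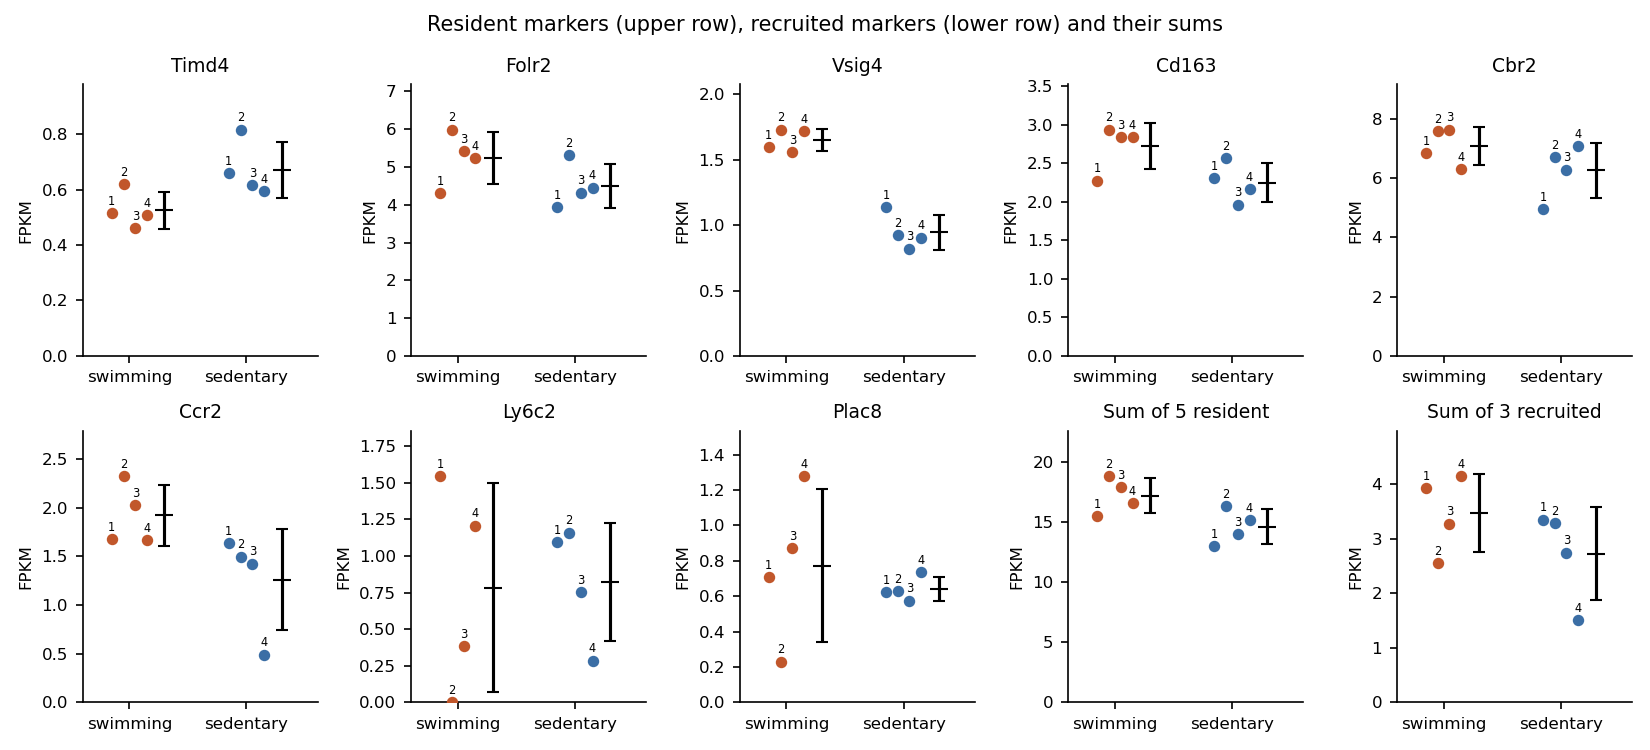
FPKM (y axes, from 0) of the 5 resident markers, the 3 recruited markers and their sums in swimming (orange) and sedentary (blue) hearts. Points are libraries numbered by replicate, with the mean and SD (n = 4) beside them. Vsig4 and Ccr2 are the panels of single genes without overlap. Sedentary replicate 4 is lowest for Ccr2 and the recruited sum, and swimming replicate 2, at 0, is lowest for Ly6c2.

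Of 5 further genes in the set used as tissue macrophage genes (Fcna, Mrc1, F13a1, Gas6 and Mertk), 5 had log2 fold changes above 0, as had 58.7% of all genes. Fcna encodes ficolin-A, a lectin of the complement system made by macrophages (ENSMUSG00000026938, chromosome 2, 25624666 to 25628030, minus strand). It had 1.74, 1.94, 1.90 and 1.90 FPKM in swimming hearts, against 1.22, 1.05, 0.905 and 1.29 FPKM in sedentary hearts, without overlap. Its means were 1.87 ± 0.0911 FPKM in swimming and 1.12 ± 0.173 FPKM in sedentary hearts (SD, n = 4 each), and the log2 fold change was 0.56 (SE 0.0953, 95% interval 0.34 to 0.78, limma adjusted p = 0.434).

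Mrc1 encodes the mannose receptor CD206 (chromosome 2, 14229392 to 14332057, plus strand). It had 11.2, 13.8, 14.1 and 11.4 FPKM in swimming hearts, against 10.8, 10.7, 10.5 and 9.79 FPKM in sedentary hearts. The groups did not overlap, swimming replicates 2 and 3 were highest, and the log2 fold change of 0.26 had a limma adjusted p of 0.629. F13a1, the A subunit of coagulation factor XIII, had 15.2, 19.7, 20.4 and 15.8 FPKM in swimming hearts, against 16.0, 14.6, 13.9 and 12.7 FPKM in sedentary hearts. Here too swimming replicates 2 and 3 stood above the rest, and swimming replicates 1 and 4 lay within the sedentary range (log2 fold change 0.30, limma adjusted p = 0.658). Without swimming replicates 2 and 3 the log2 fold change was 0.11 for Mrc1 and 0.11 for F13a1.

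Gas6, the bridge between dying cells and the receptors TYRO3, AXL and MERTK, had 34.3, 36.6, 37.4 and 32.7 FPKM in swimming hearts, against 30.2, 33.1, 34.4 and 34.1 FPKM in sedentary hearts. These ranges overlapped (log2 fold change 0.10, limma adjusted p = 0.758), and fibroblasts, endothelium and smooth muscle also make Gas6. Mertk, the engulfment receptor itself, averaged 2.73 ± 0.174 FPKM in swimming and 2.66 ± 0.330 FPKM in sedentary hearts (SD, n = 4 each; log2 fold change 0.04).

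C1q, the recognition molecule of the classical complement pathway, is built of A, B and C chains whose genes lie side by side on chromosome 4 between 136880129 and 136898803. C1qb had 23.7, 27.9, 31.3 and 24.2 FPKM in swimming hearts, against 20.1, 23.1, 22.0 and 21.6 FPKM in sedentary hearts. The groups did not overlap, and the log2 fold change was 0.29 (95% interval 0.07 to 0.51, limma adjusted p = 0.612). It was 0.14 without swimming replicates 2 and 3. C1qa had 29.4, 30.0, 32.1 and 26.2 FPKM in swimming hearts, against 6.58, 25.6, 24.9 and 19.9 FPKM in sedentary hearts. Its groups did not overlap either, but sedentary replicate 1 lay far below all others while its C1qb and C1qc did not. The log2 fold change of C1qa was 0.76 (95% interval -0.15 to 1.68, limma adjusted p = 0.702), and 0.32 without sedentary replicate 1. C1qc had 13.5, 15.6, 16.2 and 12.6 FPKM in swimming hearts, against 11.2, 13.7, 15.9 and 12.5 FPKM in sedentary hearts, with overlap (log2 fold change 0.12, 95% interval -0.16 to 0.40, limma adjusted p = 0.840). It was -0.02 without swimming replicates 2 and 3. The 3 chains summed to 66.6, 73.4, 79.6 and 63.0 FPKM in swimming hearts and to 37.8, 62.4, 62.8 and 54.0 FPKM in sedentary hearts, where the gap between swimming replicate 4 and sedentary replicate 3 was narrow.

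Lyz2 and Ctss led the lysosomal and effector genes. Lyz2 (ENSMUSG00000069516, chromosome 10, 117277331 to 117282321, minus strand) had 112.4, 121.1, 105.9 and 111.4 FPKM in swimming hearts, against 99.2, 88.0, 90.4 and 91.3 FPKM in sedentary hearts. No library overlapped, and the means were 112.7 ± 6.27 FPKM in swimming and 92.2 ± 4.86 FPKM in sedentary hearts (SD, n = 4 each). The log2 fold change was 0.29 (SE 0.0579, 95% interval 0.15 to 0.42, limma adjusted p = 0.434). Its near-identical neighbour Lyz1 can share reads with it.

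Ctss encodes cathepsin S, the protease that trims the invariant chain for antigen presentation (chromosome 3, 95526786 to 95556403, plus strand). It had 15.4, 16.2, 16.5 and 18.0 FPKM in swimming hearts, against 15.7, 12.5, 12.2 and 13.2 FPKM in sedentary hearts. Only sedentary replicate 1 reached the swimming range, and the log2 fold change was 0.30 (95% interval 0.09 to 0.50, limma adjusted p = 0.608). Laptm5, a lysosomal membrane protein of leukocytes, averaged 8.03 ± 0.806 FPKM in swimming and 7.18 ± 0.843 FPKM in sedentary hearts (SD, n = 4 each; log2 fold change 0.15). Mpeg1, the pore-forming perforin-2, had 7.60, 3.06, 1.77 and 4.81 FPKM in swimming hearts, against 7.44, 3.01, 5.91 and 0.430 FPKM in sedentary hearts. These values scattered over the same range in both groups, with a log2 fold change of 0.27 and a 95% interval of -1.36 to 1.89.

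**Figure D3:**
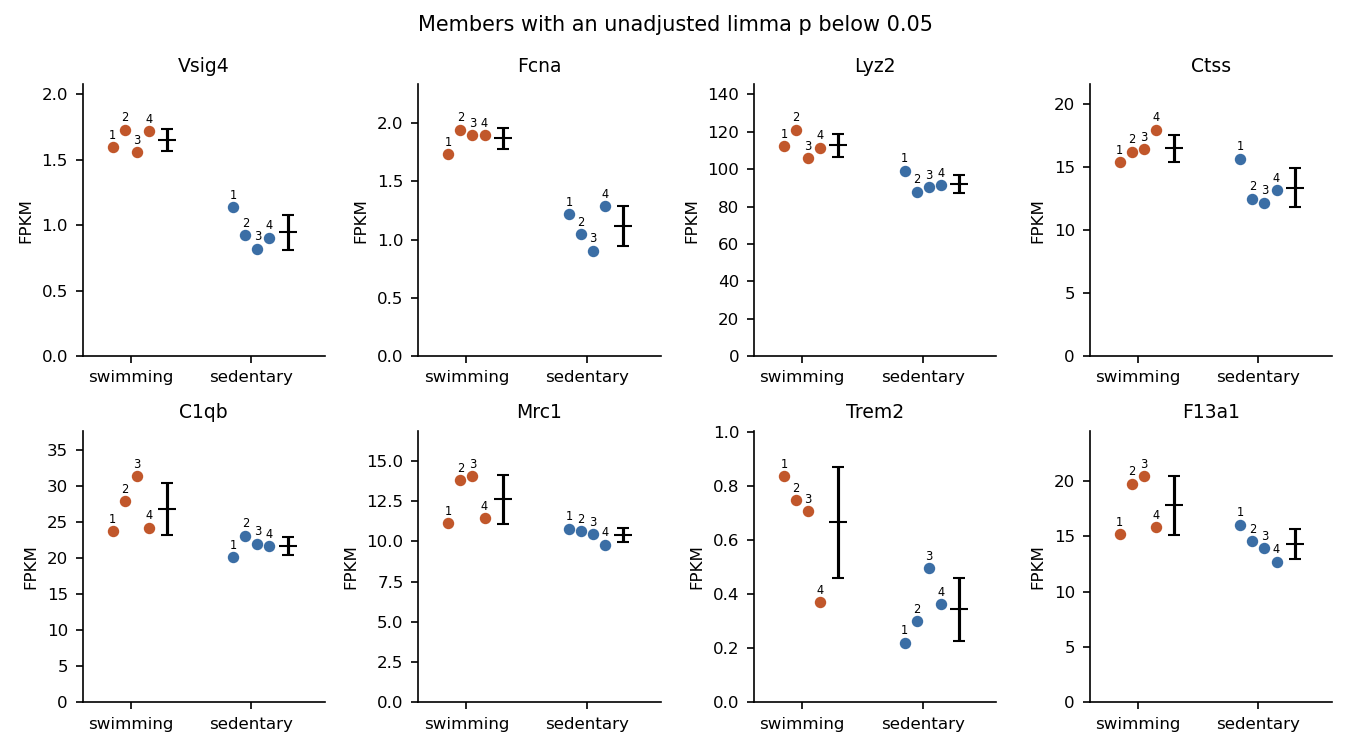
FPKM (y axes, from 0) of the 8 macrophage genes with an unadjusted limma p below 0.05, in swimming (orange) and sedentary (blue) hearts. Points are libraries numbered by replicate, with the mean and SD (n = 4) beside them. Vsig4, Fcna, Lyz2, C1qb and Mrc1 show no overlap, while in C1qb, Mrc1 and F13a1 swimming replicates 2 and 3 are the highest.

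The table is per transcript, and Ctss has a pair of measured transcripts that differ by 3 coding bases where exon 1 joins exon 2. Ctss-201 starts exon 2 at position 95529434 and Ctss-202 at 95529437. The junction is shown because the split between these transcripts, unlike their sum, varied widely. Below are 21 bases on either side of the difference, read from the mm10 transcripts, 5′ to 3′, with the extra bases in capitals.
Ctss-201: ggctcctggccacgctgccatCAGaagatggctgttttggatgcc
Ctss-202: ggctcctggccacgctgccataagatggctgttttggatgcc
Ctss-201 had 8.46, 7.25, 0.0545 and 14.8 FPKM in swimming hearts, against 6.998, 8.54, 8.04 and 2.82 FPKM in sedentary hearts. Ctss-202 had 6.95, 8.996, 16.4 and 3.25 FPKM in swimming hearts, against 8.69, 3.96, 4.16 and 10.4 FPKM in sedentary hearts. In both groups a library low in one was high in the other, and the groups overlapped for each. The ends of both transcripts differ by 3 bases as well (95556400 and 95556403), so few reads can tell them apart. Tested per transcript, 38 transcripts of the set passed the same minimum of 0.5 FPKM, and 0 had a limma adjusted p below 0.05, beside 0.0531% of all 22614 transcripts tested. At an unadjusted limma p below 0.05, 5 were higher (Vsig4-201, Fcna-201, Lyz2-201, C1qb-201 and Mrc1-201) and 0 lower, beside 3.41% of all transcripts higher and 2.09% lower.

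**Figure D4:**
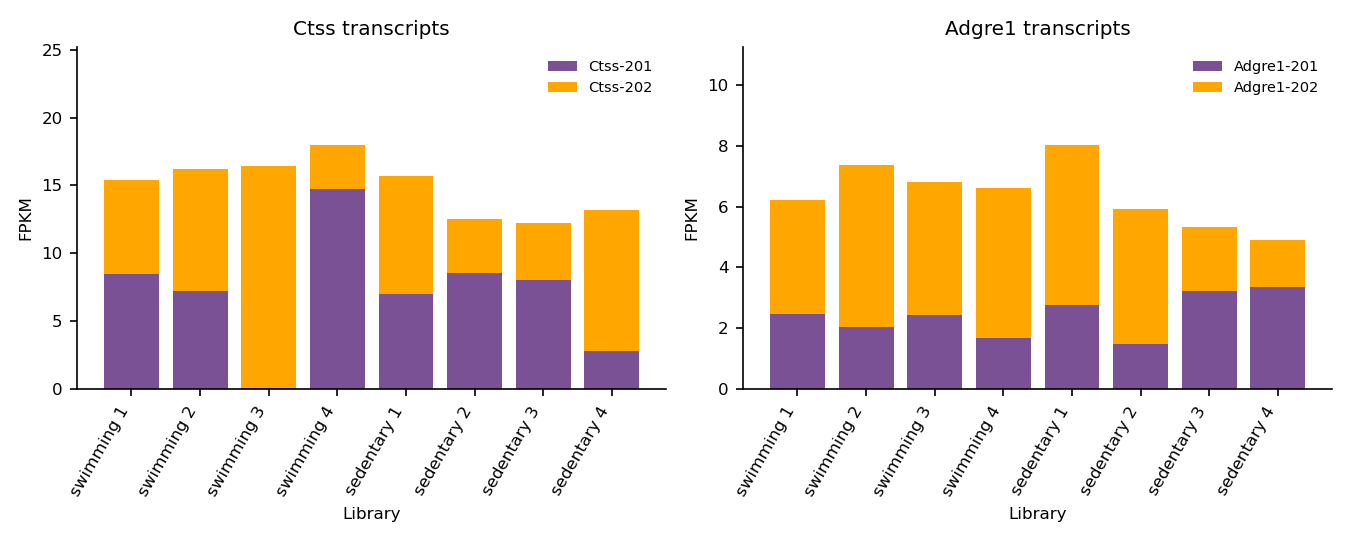
FPKM of Ctss-201 and Ctss-202 (left) and of Adgre1-201 and Adgre1-202 (right), stacked, in each library (x axis, swimming left). Ctss sums to 15.4 to 18.0 FPKM in swimming and 12.2 to 15.7 FPKM in sedentary hearts, while its split runs from nearly all Ctss-202 in swimming replicate 3 to mostly Ctss-201 in swimming replicate 4.

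The receptors for the complement fragments C3a and C5a showed no common direction. C3ar1 averaged 2.93 ± 0.316 FPKM in swimming and 2.97 ± 0.417 FPKM in sedentary hearts (SD, n = 4 each; log2 fold change -0.02, and 0.04 when libraries were scaled to the same total). C5ar1 had 2.98, 3.46, 0.459 and 2.86 FPKM in swimming hearts, against 2.88, 0.394, 0.356 and 0.369 FPKM in sedentary hearts. It was thus between 2.86 and 3.46 FPKM in 4 libraries and under 0.5 FPKM in the other 4, with 1 library of each group on the side of the other. The log2 fold change of 1.07 had a 95% interval of -0.32 to 2.47 and a limma adjusted p of 0.716.

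Fc receptors and their signalling partners carry an activating motif (ITAM) or pair with adaptors that do. Trem2, a lipid-sensing receptor that signals through the Tyrobp adaptor DAP12, had 0.835, 0.746, 0.707 and 0.370 FPKM in swimming hearts, against 0.220, 0.301, 0.495 and 0.362 FPKM in sedentary hearts. Swimming replicate 4 lay inside the sedentary range (log2 fold change 0.46, 95% interval 0.08 to 0.84, limma adjusted p = 0.657). Trem2 passed the minimum of 0.5 FPKM only through the swimming libraries, so its difference is no more than a description. Tyrobp had 9.15, 9.84, 9.69 and 7.82 FPKM in swimming hearts, against 5.77, 9.54, 8.05 and 6.75 FPKM in sedentary hearts, with overlap (log2 fold change 0.28, limma adjusted p = 0.707).

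Fcgr3, a low-affinity IgG receptor, averaged 7.48 ± 1.82 FPKM in swimming and 6.64 ± 0.794 FPKM in sedentary hearts (SD, n = 4 each; log2 fold change 0.14, and -0.15 without swimming replicates 2 and 3). Fcgr1, the high-affinity IgG receptor, averaged 1.11 ± 0.272 FPKM in swimming and 1.07 ± 0.144 FPKM in sedentary hearts (SD, n = 4 each; log2 fold change 0.03, and -0.02 after quantile normalization). Fcer1g, the common chain of several Fc receptors, was the one gene of the set under the 0.5 FPKM minimum. It had 0.0713, 0.108, 0.0541 and 0.01998 FPKM in swimming hearts, against 0.140, 0.0962, 0.140 and 0.148 FPKM in sedentary hearts. The groups overlapped in swimming replicate 2 and sedentary replicate 2 (exact two-sided permutation p = 0.0571, where the smallest possible is 0.0286). These values lie near 0, far below those of Fcgr3 and Tyrobp. Reads given to transcripts without a gene name are outside them, and the part of such reads was not tested.

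The lineage and surface genes had a median log2 fold change of 0.15, and apart from Itgam they lay between -0.06 and 0.18. Csf1r had 12.4, 11.3, 10.5 and 10.8 FPKM in swimming hearts, against 10.3, 10.6, 9.92 and 10.2 FPKM in sedentary hearts, with overlap in swimming replicate 3 and a log2 fold change of 0.12 (95% interval -0.02 to 0.27, limma adjusted p = 0.701). Adgre1, which encodes the macrophage surface protein F4/80, had 6.23, 7.38, 6.80 and 6.62 FPKM in swimming hearts, against 8.04, 5.93, 5.33 and 4.91 FPKM in sedentary hearts. Sedentary replicate 1 was above all swimming libraries and the other three sedentary libraries were below them (log2 fold change 0.17, limma adjusted p = 0.799). Cx3cr1, the fractalkine receptor of tissue macrophages and patrolling monocytes, had 1.94, 0.521, 0.991 and 1.63 FPKM in swimming hearts, against 1.73, 1.16, 1.15 and 1.01 FPKM in sedentary hearts, so that the means were 1.27 ± 0.636 FPKM in swimming and 1.26 ± 0.317 FPKM in sedentary hearts (SD, n = 4 each). Its log2 fold change was -0.06 with a 95% interval of -0.69 to 0.58.

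Cd68, a lysosomal glycoprotein, averaged 3.68 ± 0.622 FPKM in swimming and 3.17 ± 0.372 FPKM in sedentary hearts (SD, n = 4 each). Cd14, the co-receptor for lipopolysaccharide, averaged 2.65 ± 0.0623 FPKM in swimming and 2.80 ± 0.421 FPKM in sedentary hearts. Ms4a7 averaged 1.91 ± 0.612 FPKM in swimming and 1.60 ± 0.324 FPKM in sedentary hearts, and Aif1, the calcium-binding protein IBA1, 1.33 ± 0.416 FPKM in swimming and 1.38 ± 0.184 FPKM in sedentary hearts. The log2 fold changes of these 4 genes were between -0.06 and 0.18. Itgam, the integrin chain CD11b, had 2.05, 2.75, 3.45 and 2.46 FPKM in swimming hearts, against 2.38, 2.03, 0.398 and 2.06 FPKM in sedentary hearts. Its log2 fold change of 0.63 (95% interval -0.21 to 1.48) was 0.24 without sedentary replicate 3, where the gene was low.

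**Figure D5:**
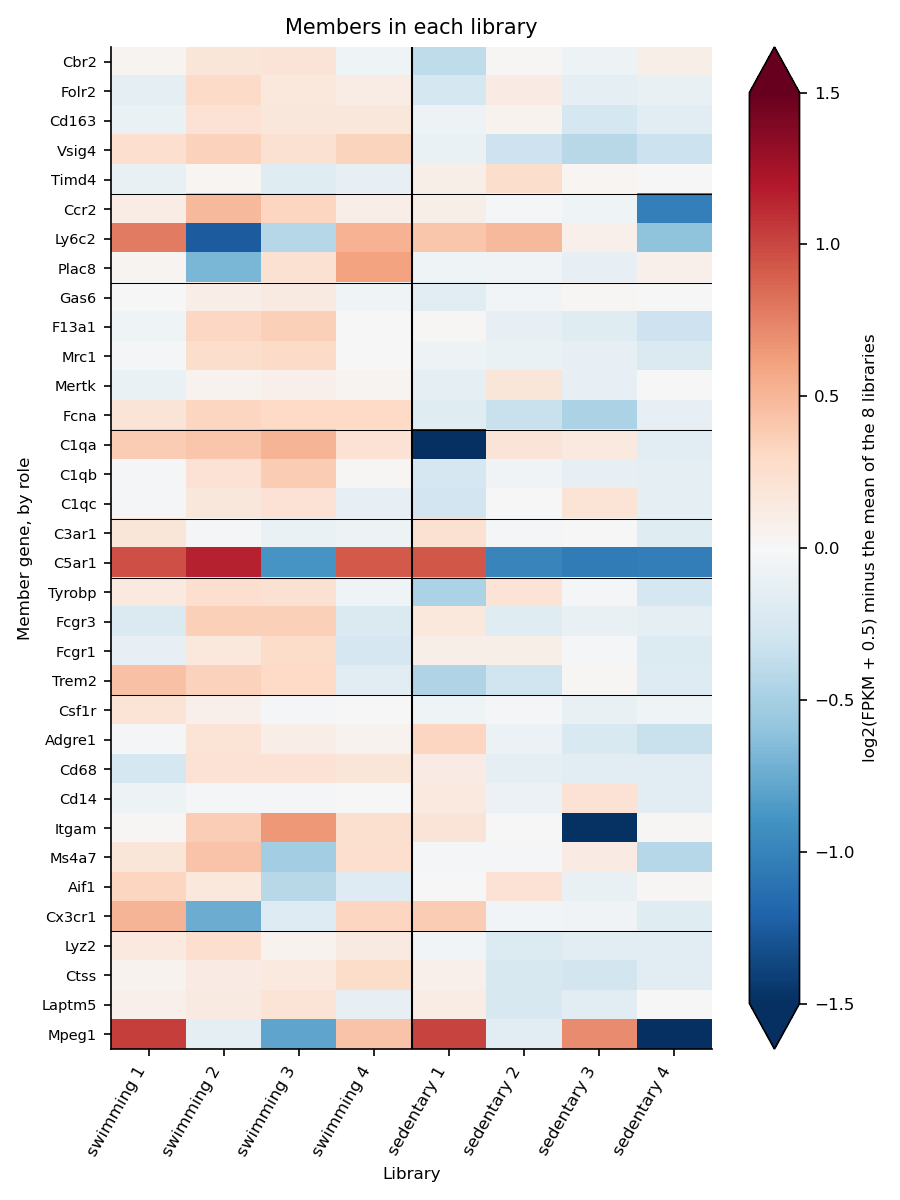
Each of the 34 macrophage genes tested (rows, by role) in each library (columns, swimming left of the line), as log2(FPKM + 0.5) minus the mean of the 8 libraries. Red is above and blue below that mean, with colours capped at 1.5. The swimming columns are redder in most rows, C5ar1, Mpeg1 and the recruited markers vary within each group, and single dark cells mark C1qa in sedentary replicate 1 and Itgam in sedentary replicate 3.

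The promoters of the 5 genes with an unadjusted limma p below 0.05 and no overlap (Vsig4, Fcna, Lyz2, C1qb and Mrc1) are given to show the sequence at their starts. They run from 250 bases before to 50 bases after the start in RefSeq on GRCm38.p6, 5′ to 3′ on the strand of the gene. Capitals mark GAGGAA or its reverse complement TTCCTC, core letters bound by PU.1, the transcription factor of the myeloid lineage.
Vsig4, chrX:96293389-96293688, minus strand: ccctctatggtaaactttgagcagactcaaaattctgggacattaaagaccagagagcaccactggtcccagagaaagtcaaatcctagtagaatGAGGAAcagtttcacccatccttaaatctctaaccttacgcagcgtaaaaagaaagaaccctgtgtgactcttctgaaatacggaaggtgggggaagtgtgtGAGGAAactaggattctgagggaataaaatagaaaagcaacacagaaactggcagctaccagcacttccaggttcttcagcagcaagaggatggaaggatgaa
Fcna, chr2:25627925-25628224, minus strand: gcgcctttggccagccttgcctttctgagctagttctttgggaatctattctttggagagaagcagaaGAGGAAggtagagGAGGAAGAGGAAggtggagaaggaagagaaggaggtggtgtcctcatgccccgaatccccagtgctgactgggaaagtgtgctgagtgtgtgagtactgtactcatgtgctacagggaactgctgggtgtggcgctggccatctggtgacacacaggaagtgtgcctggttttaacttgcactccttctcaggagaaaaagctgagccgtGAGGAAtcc
Lyz2, chr10:117282223-117282522, minus strand: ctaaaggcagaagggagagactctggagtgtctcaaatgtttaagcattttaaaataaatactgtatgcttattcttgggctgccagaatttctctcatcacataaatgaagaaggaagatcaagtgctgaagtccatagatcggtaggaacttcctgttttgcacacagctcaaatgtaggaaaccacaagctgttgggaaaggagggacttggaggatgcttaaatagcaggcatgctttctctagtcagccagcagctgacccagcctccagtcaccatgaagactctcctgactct
C1qb, chr4:136886151-136886450, minus strand: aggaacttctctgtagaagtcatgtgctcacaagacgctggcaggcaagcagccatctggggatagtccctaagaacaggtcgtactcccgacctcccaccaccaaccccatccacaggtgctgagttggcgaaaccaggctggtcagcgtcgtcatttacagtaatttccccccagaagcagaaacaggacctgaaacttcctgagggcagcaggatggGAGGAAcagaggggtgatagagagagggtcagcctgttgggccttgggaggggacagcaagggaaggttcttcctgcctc
Mrc1, chr2:14229164-14229463, plus strand: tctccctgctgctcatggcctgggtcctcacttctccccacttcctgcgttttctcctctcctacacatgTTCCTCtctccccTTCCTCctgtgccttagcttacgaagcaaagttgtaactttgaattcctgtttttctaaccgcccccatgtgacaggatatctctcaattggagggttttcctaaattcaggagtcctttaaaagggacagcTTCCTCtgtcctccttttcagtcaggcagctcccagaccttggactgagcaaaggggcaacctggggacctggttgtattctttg
These windows hold 2 matches in Vsig4, 4 in Fcna, 0 in Lyz2, 1 in C1qb and 3 in Mrc1. RefSeq promoters were found for 30 of the 35 genes, 36 in all because some genes have several starts, whose windows can overlap. GAGGAA stood on either strand in 21 of these 36 (58.3%, in 18 genes), against 28.3% of 32851 promoters. The AP-1 letters TGANTCA stood in 13.9% against 7.81%, the C/EBP letters TTGCNNAA in 13.9% against 10.8% and the MAF letters TGCTGAC in 13.9% against 4.67%, which was 5 promoters each. TATAAA stood in 3 promoters (8.33%), against 13.6% of all promoters. Both strands were searched, TGCTGAC and TGANTCA can overlap, and a match is a description of letters in this window.

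Other macrophage and monocyte genes were taken from lists of the same kind, and 0 of them were called. Over all genes tested, 58.7% had a log2 fold change above 0. At an unadjusted limma p below 0.05, 4.93% were higher and 2.43% lower, to be read beside each list below. Of a list of 19 further resident macrophage genes, 15 were tested, with 11 log2 fold changes above 0 and 4 below, a median of 0.19, 0 calls and 4 higher at an unadjusted limma p below 0.05. Hmox1, the haem oxygenase that breaks down haem, averaged 5.94 ± 1.21 FPKM in swimming and 4.35 ± 0.292 FPKM in sedentary hearts (SD, n = 4 each). It was highest in swimming replicates 2 and 3, at 6.01 and 7.62 FPKM, against 4.975 and 5.15 FPKM in swimming replicates 1 and 4. Maf, a transcription factor of macrophages, averaged 5.09 ± 0.327 FPKM in swimming and 4.30 ± 0.379 FPKM in sedentary hearts (SD, n = 4 each). Retnla had the log2 fold change of largest size in this list, -0.58, with overlap. It averaged 3.07 ± 1.23 FPKM in swimming and 4.735 ± 1.325 FPKM in sedentary hearts (SD, n = 4 each). Of 15 further monocyte genes 7 were tested, 3 above 0 and 4 below, with a median of -0.02 and 2 higher at an unadjusted limma p below 0.05. These were Fcgr4, an IgG receptor whose sedentary mean was under the minimum of 0.5 FPKM so that its difference is a description, at 0.763 ± 0.187 FPKM in swimming and 0.494 ± 0.0728 FPKM in sedentary hearts, and Cd52, a leukocyte surface peptide, at 2.12 ± 0.227 FPKM in swimming and 1.72 ± 0.216 FPKM in sedentary hearts (SD, n = 4 each).

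Complement genes outside C1q included C4b, which encodes the C4 component cleaved by C1s. It averaged 18.6 ± 2.71 FPKM in swimming and 12.4 ± 1.05 FPKM in sedentary hearts (SD, n = 4 each). No libraries overlapped, as in 3.24% of all genes, and at a log2 fold change of 0.56 the limma adjusted p was 0.434. Swimming replicates 2 and 3 were highest, at 19.9 and 21.7 FPKM, against 17.2 and 15.7 FPKM in swimming replicates 1 and 4. Of 18 complement genes 14 were tested, 11 above 0 and 3 below (median 0.15), with 3 higher at an unadjusted limma p below 0.05 and 0 called. Itgax, above 0, reached the minimum only through its swimming values (means 0.636 FPKM in swimming and 0.489 FPKM in sedentary hearts). Its direction is therefore a description. Class II antigen presentation genes had mostly negative log2 fold changes. Of 8 tested, 2 were above 0 and 6 below (median -0.11), and 0 had an unadjusted limma p below 0.05. The 3 with the smallest p were H2-Aa, a class II chain, at 33.3 ± 2.62 FPKM in swimming and 40.3 ± 6.18 FPKM in sedentary hearts, Ctsz, the protease cathepsin Z, at 11.6 ± 0.801 FPKM in swimming and 10.2 ± 0.996 FPKM in sedentary hearts, and Cd74, the invariant chain, at 50.8 ± 2.13 FPKM in swimming and 60.2 ± 10.7 FPKM in sedentary hearts (SD, n = 4 each). Ctsz was one of the genes above 0.

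Of 15 further lysosomal genes, 12 were above 0 and 3 below (median 0.05), with 2 higher at an unadjusted limma p below 0.05. Hexa, a subunit of the lysosomal beta-hexosaminidase, averaged 25.8 ± 1.14 FPKM in swimming and 23.0 ± 0.981 FPKM in sedentary hearts, and Ctsl, cathepsin L, averaged 41.0 ± 5.38 FPKM in swimming and 32.3 ± 3.31 FPKM in sedentary hearts (SD, n = 4 each). The growth factors that keep macrophages alive did not pass any test. Csf1 averaged 13.5 ± 1.86 FPKM in swimming and 12.8 ± 2.16 FPKM in sedentary hearts, and Il34 averaged 1.06 ± 0.230 FPKM in swimming and 1.26 ± 0.162 FPKM in sedentary hearts (SD, n = 4 each). Pros1, which like Gas6 links dying cells to MERTK, averaged 9.89 ± 0.589 FPKM in swimming and 8.63 ± 0.704 FPKM in sedentary hearts. It was the 1 gene of 5 tested from that receptor family and its ligands with an unadjusted limma p below 0.05.

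Leukocyte genes in general and markers of other cells were read from the same libraries. Of 12 pan-leukocyte genes 11 were tested, 9 above 0 and 2 below (median 0.13), and 0 had an unadjusted limma p below 0.05. Ptprc, the leukocyte antigen CD45, averaged 1.85 ± 0.556 FPKM in swimming and 2.13 ± 0.341 FPKM in sedentary hearts, and Spi1, which encodes PU.1, 1.41 ± 0.309 FPKM in swimming and 1.26 ± 0.0554 FPKM in sedentary hearts (SD, n = 4 each). By comparison, 15 macrophage markers, all in the set, summed to 255 to 283 FPKM in swimming and 211 to 224 FPKM in sedentary hearts. Lists of other immune cells were at low levels. The sums were 1.35 to 7.16 FPKM in swimming and 1.27 to 5.60 FPKM in sedentary hearts for the 10 neutrophil genes measured, 1.73 to 2.34 FPKM in swimming and 1.81 to 2.33 FPKM in sedentary hearts for 9 T cell genes, 0.440 to 0.629 FPKM in swimming and 0.671 to 1.26 FPKM in sedentary hearts for 6 B cell genes, and 0.201 to 0.727 FPKM in swimming and 0.434 to 0.591 FPKM in sedentary hearts for 6 NK cell genes. S100a9, a neutrophil gene, was at 0 in all libraries but sedentary replicate 2, where it had 0.992 FPKM. For 8 dendritic cell genes they were 8.73 to 9.91 FPKM in swimming and 8.59 to 10.01 FPKM in sedentary hearts, of which Zbtb46 made up most, with means of 8.02 FPKM in swimming and 7.82 FPKM in sedentary hearts. Of these 8 only Zbtb46 and Itgax reached the minimum of 0.5 FPKM, so the sum is no measure of dendritic cells. For 6 mast cell genes the sums were 2.47 to 3.75 FPKM in swimming and 2.56 to 5.86 FPKM in sedentary hearts.

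Among stromal cells, lymphatic endothelium also expresses Mrc1, and fibroblasts also express several complement genes. Of 7 lymphatic markers 6 were tested (Ccl21a under more than one gene identifier), with log2 fold changes above 0 and 1 gene, Mmrn1, higher at an unadjusted limma p below 0.05. Pdpn reached the minimum only through its swimming values, with means of 0.66 FPKM in swimming and 0.34 FPKM in sedentary hearts. Its direction is therefore no more than a description. Prox1 was under the minimum. The list had sums of 14.7 to 27.8 FPKM in swimming and 14.7 to 18.7 FPKM in sedentary hearts. Lyve1, which resident macrophages share with lymphatic vessels, had 4.06, 6.57, 7.76 and 3.92 FPKM in swimming hearts, against 4.36, 4.78, 3.64 and 4.59 FPKM in sedentary hearts, highest in the libraries where Mrc1 and F13a1 were highest. Fibroblast markers had 9 of 10 above 0 (median 0.12) and 2 higher at an unadjusted limma p below 0.05, with sums of 579 to 638 FPKM in swimming and 551 to 602 FPKM in sedentary hearts. Endothelial markers summed to 344 to 408 FPKM in swimming and 331 to 386 FPKM in sedentary hearts, smooth muscle and pericyte markers to 251 to 284 FPKM in swimming and 284 to 302 FPKM in sedentary hearts, mesothelial markers to 3.53 to 5.03 FPKM in swimming and 1.72 to 6.72 FPKM in sedentary hearts and erythroid genes to 475 to 1088 FPKM in swimming and 448 to 1208 FPKM in sedentary hearts. Adipocyte genes summed to at most 1.17 FPKM in swimming hearts, against up to 23.7 FPKM in sedentary hearts, and hepatocyte genes to at most 1.07 FPKM in swimming hearts, against up to 44.0 FPKM in sedentary hearts, with both sedentary maxima in replicate 4. Of the 2 fibroblast genes with such a p, the matrix gene Fbln1 averaged 23.1 ± 0.790 FPKM in swimming and 17.9 ± 1.23 FPKM in sedentary hearts (SD, n = 4 each) without overlap, and the other was Dcn. Of the smooth muscle and pericyte genes Abcc9 and Acta2 were lower at an unadjusted limma p below 0.05, with Abcc9 at 62.3 ± 4.35 FPKM in swimming and 80.3 ± 6.95 FPKM in sedentary hearts (SD, n = 4 each). The smooth muscle and pericyte sums were lower in all swimming libraries than in any sedentary one, by a narrow gap (283.9 against 284.4 FPKM). Rgs5 and Abcc9 made up most of these sums. Abcc9 did not overlap, at 56.8 to 67.4 FPKM in swimming and 71.7 to 86.4 FPKM in sedentary hearts. Rgs5 overlapped, at 146.5 to 170.7 FPKM in swimming and 158.9 to 169.7 FPKM in sedentary hearts. The gap in the sums therefore cannot be read as a trait of the list. Of 8 genes tested in that list, 5 had log2 fold changes above 0 and 3 below (median 0.03). The B cell sums were also lower in all swimming libraries, but 0 of the 6 B cell genes reached the minimum of 0.5 FPKM. No measured gene of these lists was at 0 in all libraries. The part of these cells in the differences was not tested.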

How the data were processed

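Heart RNA was sequenced in 4 swimming and 4 sedentary samples, grouped by the treatment label. The authors deposited FPKM for 51169 transcripts, as its headers show. The submitters' processing notes list HISAT2, Salmon 0.8.2, STAR 2.5.1a, featureCounts 1.4.6-p5 and Subread, and the build mm10. Which tool made the FPKM, and whether strand was kept, the sources used here do not give, so overlapping genes can share reads.

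GENCODE M21 (mm10) named 45676 of 45742 Ensembl transcripts, and their FPKM were summed to 18137 genes. The 5427 assembled transcripts, 11.3% to 12.5% of each library's total, carry no gene name and stay outside these sums. Genes with a mean of at least 0.5 FPKM were tested in R 4.3.3 with limma 3.58.1, on log2(FPKM + 0.5) (eBayes with trend, 2 groups of 4 libraries, two-sided), adjusted over all 11674 genes. Fold changes on this scale understate the change of low genes. Ratios between libraries of values below 0.1 FPKM were compared with ratios of small whole numbers (log2 window 0.02) over 28 library pairs. At the offset with the highest share, 14.4% to 22.2% of cases matched. The median share over all offsets tried was 5.02% to 5.5%, which a highest share exceeds by construction. The highest share was too low to recover reads, so depth stays unknown and counting intervals are left out. These offsets were 0.78 to 0.92 log2 units in size between swimming replicate 2 and other libraries, but 0.28 with swimming replicate 3. Between all other pairs they were at most 0.2. Swimming replicate 2 also had the most transcripts above 0, 43018, against 39942 to 41045. Whether its depth differed was not tested. On simulated data the fit recovered 75.3% of 200 genes changed by 1 log2 unit, over 10 runs of 11674 genes. The simulated libraries had no shared library effects. The macrophage genes had a median log2 fold change of 0.18, so this share does not apply to changes of that size.

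The members, lists and motifs were chosen with earlier results of these data known. Values in every library are given for the 8 resident and recruited markers, members with an unadjusted limma p below 0.05, the 6 highest in level, the C1q chains, Cx3cr1, Adgre1 and Csf1r, and otherwise for members whose libraries differ widely, chosen after their values were seen. Other lists are named by up to 3 genes of the smallest p. Ptprc, Spi1, Csf1, Il34, Lyve1, Prox1, S100a9, Zbtb46, Retnla, Rgs5, Pdpn, Itgax and the genes describing single libraries were chosen outside this rule. Alternatives covered the pseudocount, the filter, scaling, library weights, the variance model, a replicate block and libraries left out. Tables came from pandas 2.3.3 and scipy 1.17.1 under Python 3.11.15, figures from matplotlib 3.10.9.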

Additional observations from a re-analysis of the deposited data

Results flagged for a closer look

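In 6 of 70 group-by-gene sets of 4 libraries, 1 library lay beyond Dixon's 95% critical value for its gap to the nearest other library over the range. Chance gives about 1 in 20. Swimming replicate 1 was the low one for Cd163 (2.28 FPKM), Cd68 (2.75 FPKM) and Cd14 (2.56 FPKM). Sedentary replicate 1 was the high one for C5ar1 (2.88 FPKM) and Cd68 (3.73 FPKM), and sedentary replicate 2 was the low one for Fcer1g (0.0962 FPKM). C1qa in sedentary replicate 1, at 6.58 FPKM, did not pass this criterion.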

How the results depend on the processing

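With at most 21 alternatives for each of the 34 macrophage genes, 677 of 705 fold changes kept their direction, 28 turned and 0 passed the threshold; 23 genes never turned. The limma adjusted p ran from 0.147 to 0.826 for Vsig4, 0.290 to 0.826 for Fcna and 0.297 to 0.826 for Lyz2. Log2 fold changes turned to -0.0157 for Plac8 and 0.00315 for C3ar1 with library weights, 0.0351 for C3ar1 with libraries scaled to the same total, and -0.0152 for Fcgr1 after quantile normalization. Without swimming replicates 2 and 3, chosen after seeing the data, they turned to 0.56 for Ly6c2, 0.39 for Cx3cr1, 0.0434 for C3ar1, 0.0308 for Aif1, -0.0186 for C1qc, -0.00621 for Mertk, -0.15 for Fcgr3 and -0.17 for Fcgr1. With 1 library left out at a time, the ranges that crossed 0 were -0.10 to 0.33 for Plac8, -0.48 to 0.20 for Ly6c2, -0.24 to 0.18 for Cx3cr1, -0.38 to 0.65 for Mpeg1, -0.0588 to 0.12 for Fcgr1, -0.0785 to 0.0592 for C3ar1, -0.18 to 0.0642 for Aif1, -0.12 to 0.00496 for Cd14 and -0.000363 to 0.11 for Mertk. The causes were not tested.

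The 7 genes of the set without overlap became 3 after median-of-ratios scaling. Their number was 7 to 11 with a library left out (11 without swimming replicate 1 and 11 without sedentary replicate 1). Fewer libraries overlap more rarely, in all genes as in the set. The share of all genes was not counted with a library left out, so the higher numbers cannot be read as a stronger result. Genes called over the whole table, 2, became 1 with a pseudocount of 0.1, 1 after quantile normalization, 0 without swimming replicates 2 and 3, and 0 to 5 with a library left out (0 without swimming replicate 2, 1 without swimming replicate 1 or sedentary replicate 4, 4 without sedentary replicate 2 or 3, 5 without swimming replicate 4). With the replicate number as a block 0 genes were called. Deviations of same-numbered libraries correlated at -0.05 to 0.02, so no shared effect of the number was seen. The labels do not say whether samples were paired, and these correlations cannot decide it. Low genes such as Timd4, Trem2 and Ly6c2 are limited by a depth that the table does not give.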

Other observations

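Chemokines that attract monocytes did not share a direction. Ccl8, a CCR2 and CCR8 ligand expressed by resident macrophages, averaged 8.998 ± 2.19 FPKM in swimming and 5.74 ± 1.347 FPKM in sedentary hearts (SD, n = 4 each; log2 fold change 0.60, limma adjusted p = 0.642). Ccl2 averaged 2.76 ± 0.964 FPKM in swimming and 5.26 ± 2.34 FPKM in sedentary hearts (log2 fold change -0.77), and Ccl7 averaged 4.14 ± 1.56 FPKM in swimming and 7.71 ± 3.25 FPKM in sedentary hearts (log2 fold change -0.80). Sedentary replicates 3 and 4 were highest, at 7.56 and 6.94 FPKM for Ccl2 and 11.3 and 9.56 FPKM for Ccl7. For both genes sedentary replicates 1 and 2 lay within the swimming range. The groups overlapped for Ccl8 as well, and its swimming replicates 2 and 3 were highest. They had 9.99 and 11.5 FPKM, against 6.55 and 7.96 FPKM in swimming replicates 1 and 4. Of 10 such genes 7 were tested, 1 higher and 2 lower at an unadjusted limma p below 0.05, and 0 called.

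Lists of macrophage states were tested in part, since other genes were under the 0.5 FPKM minimum. Of 12 inflammatory genes 6 were tested, 2 above 0 and 4 below, and of 9 genes of alternative activation 3 were tested, 1 above 0 and 2 below. Neither list had a gene at an unadjusted limma p below 0.05. The inflammatory gene Ptgs2, below 0, reached the minimum only through its sedentary values (means 0.369 FPKM in swimming and 0.725 FPKM in sedentary hearts). Its direction is therefore a description. Of 6 genes of efferocytosis and scar macrophages 5 were tested, 4 above 0, and the 1 with an unadjusted limma p below 0.05 was Apoe, an apolipoprotein that macrophages secrete, at 2.47 ± 0.681 FPKM in swimming and 1.51 ± 0.638 FPKM in sedentary hearts (SD, n = 4 each).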
